A study of Mus musculus with 6 samples.

Results

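The genes described here encode the delta chain of the gamma delta T cell receptor (Trdc, its constant region, and Trdv4, one of its variable segments) and the chains that carry the receptor's signal (Cd3d, Cd3e, Cd3g and Cd247). They are the 6 of 54532 rows of the count table that bear these gene names, and the 16 other rows of the gamma and delta loci whose names begin with Trdv, Trgv, Trgc or Tcrg- were read with them. The table holds 6 Smart-seq2 libraries, which sample whole transcripts from little RNA, made from the dissociated dorsal epidermis of male and female C57BL/6 mice aged 4 weeks. The 3 NCAM-enriched libraries hold cells that the study took as Merkel cells, the touch-sensing neuroendocrine cells of the skin. These cells were captured on beads against polysialylated NCAM (CD56) and then sorted as NCAM-positive, DAPI-negative cells. The 3 bulk skin libraries hold DAPI-negative cells with no selection for NCAM, and are not said to come from the same suspension. They are labelled as total skin, although the study's methods describe epidermis only. Each library was made from 500 sorted events, and no source used here says that the replicates came from separate animals, so the p-values measure only the spread between these libraries.

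A T cell receptor consists of a pair of variable chains that recognise a target but have almost no tail inside the cell. It reaches the surface only in a complex with the CD3 delta, epsilon and gamma chains (Cd3d, Cd3e, Cd3g) and the zeta chain (Cd247), whose activation motifs are phosphorylated by the kinase Lck and then bound by the kinase Zap70. In mouse epidermis the resident T cells are mostly dendritic epidermal T cells, which arise in the fetal thymus and carry a nearly invariant gamma delta receptor. Its gamma chain is built from Tcrg-V5, Trgj1 and Tcrg-C1 and its delta chain from Trdv4, Trdd2, Trdj2 and Trdc.

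The main variable exon of each chain and the diversity and joining segments of that receptor are shown because its chains are built from them. They were read from GENCODE release M21 on GRCm38, all on the plus strand. The last exon of Trdv4 lies at chr14:54075217-54075515 and that of Tcrg-V5 at chr13:19192428-19192725. In both, the capitals run from the codon of the conserved cysteine to the 3′ end, where the segment is joined in a rearranged gene. In the joining segments Trdj2 (chr14:54136779-54136837) and Trgj1 (chr13:19210343-19210402) the capitals mark 4 codons from the conserved phenylalanine, and the diversity segment Trdd2 (chr14:54122226-54122241) is in capitals throughout.
Trdv4: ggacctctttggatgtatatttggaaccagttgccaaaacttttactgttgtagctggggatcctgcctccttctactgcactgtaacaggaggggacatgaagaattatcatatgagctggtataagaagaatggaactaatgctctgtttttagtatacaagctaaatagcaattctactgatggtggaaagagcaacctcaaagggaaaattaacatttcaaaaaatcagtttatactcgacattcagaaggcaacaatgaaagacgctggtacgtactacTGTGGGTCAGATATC
Trdd2: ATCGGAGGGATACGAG
Trdj2: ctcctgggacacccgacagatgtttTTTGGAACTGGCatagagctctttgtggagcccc
Tcrg-V5: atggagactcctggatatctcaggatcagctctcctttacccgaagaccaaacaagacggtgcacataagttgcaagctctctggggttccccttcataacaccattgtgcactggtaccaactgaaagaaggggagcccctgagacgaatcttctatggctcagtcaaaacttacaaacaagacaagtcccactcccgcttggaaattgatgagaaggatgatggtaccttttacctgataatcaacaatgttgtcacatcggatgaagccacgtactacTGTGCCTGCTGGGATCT
Trgj1: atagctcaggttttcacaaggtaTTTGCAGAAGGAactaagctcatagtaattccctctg

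Library totals ran from 1343190 to 3798136 counts in the NCAM-enriched group and from 3333753 to 4481830 in bulk skin, so that 1 count was worth 0.216 to 0.773 CPM (CPM, the counts divided by the TMM-scaled library size). The 3 bulk skin libraries resembled each other more (r = 0.855 to 0.882 across genes) than the NCAM-enriched ones did (0.596 to 0.719). All 10 Merkel cell markers were detected in both groups. Of these, 5 passed the test as higher in the NCAM-enriched libraries, where 1.04% of all tested genes did. Among the 5 were the keratin gene Krt20 (772 against 162 counts over the group) and the granule protein gene Chga (787 against 17). Summed, the 10 stood at 1569, 1674 and 482 CPM in NCAM-enriched replicates 1, 2 and 3 and at 186, 147 and 133 CPM in bulk skin. Of the 7 keratinocyte markers, Krt10 and Krt77 were also called higher and the other 5, among them Krt5 and Krt14 (log2 fold change 0.23 and 0.32), were not. Summed, these 7 stood at 32170, 17870 and 38890 CPM in the NCAM-enriched libraries, above the Merkel cell markers. In bulk skin they stood at 15950, 14070 and 11350 CPM. Without bulk skin replicate 1, 2 or 3 no marker of either list was called.

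All 6 genes were low or absent in the NCAM-enriched libraries and abundant in every bulk skin library. Summed, they held 6730, 10703 and 9001 counts in the bulk skin libraries, or 0.202%, 0.239% and 0.260% of all counts. The NCAM-enriched libraries held 2, 3 and 48 counts, or 0.000100%, 0.000223% and 0.00126% (exact 95% binomial interval of the last 0.000932 to 0.00168%). Of the 48 counts in NCAM-enriched replicate 3, 44 were Cd3g. Every one of the 6 passed the test as lower (edgeR's quasi-likelihood test, Benjamini-Hochberg adjusted p of at most 0.05 over 13157 genes), and for each the groups did not overlap. Among all tested genes 1.55% were called lower and in 19.3% every NCAM-enriched library lay below every bulk skin library. DESeq2 and limma-voom also called all 6 lower, where they called 7.05% and 6.45% of all genes lower. Leaving out bulk skin replicate 1, 2 or 3 left 4 of the 6 called, without Cd3g and Cd247, while the genes called lower among all tested fell from 204 to 13, 21 and 16. In bulk samples, fewer T cells and less RNA per T cell cannot be told apart.

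**Figure D1:**
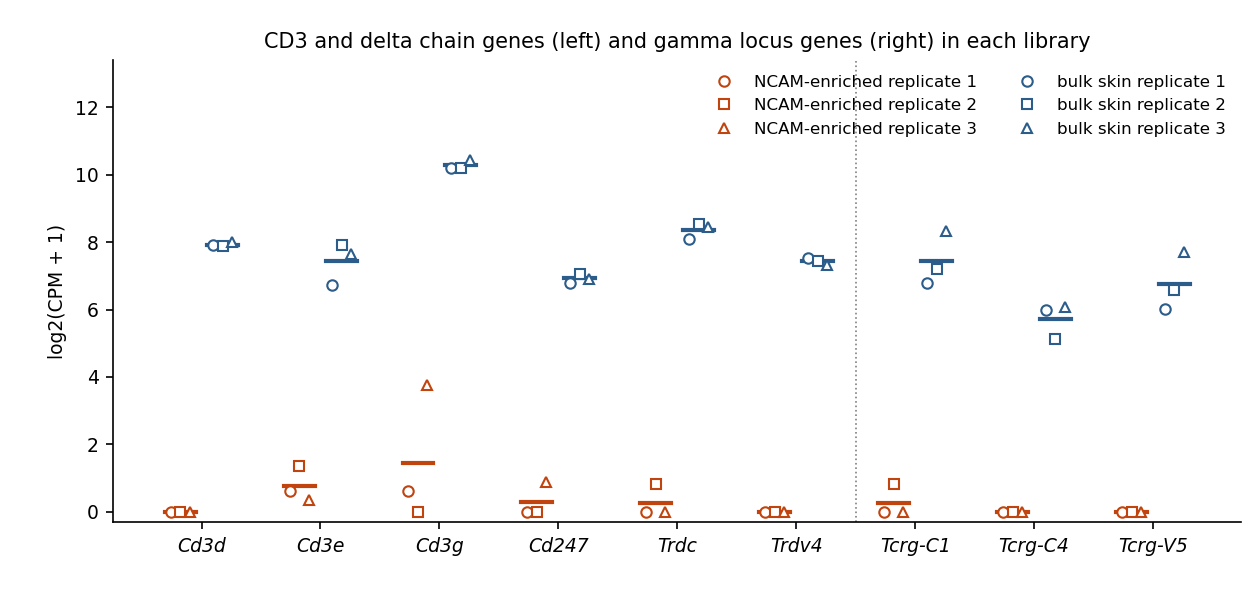
Levels of the 6 genes and of 3 gamma locus genes as log2(CPM + 1), 1 symbol per library and a bar at the mean of each group's 3 libraries. All 9 genes lie far lower in the NCAM-enriched libraries than in bulk skin, and the highest NCAM-enriched symbol is Cd3g in replicate 3, at 44 counts.

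Cd3d (chr9:44981786-44987339, plus strand) encodes the CD3 delta chain, which pairs with epsilon. It held 766, 1081 and 923 counts in the bulk skin libraries and 0 in each NCAM-enriched library. The bulk skin values were the closest of the set, at 242 ± 10.2 CPM (SD, n = 3), a coefficient of variation of 4.22%. Set against the floor of 3 counts over the NCAM-enriched group, Cd3d was at least 538-fold lower there (edgeR adjusted p = 0.00189). Without NCAM-enriched replicate 3, the deepest library of its group, the bound was at least 255-fold.

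Cd3e (chr9:44998740-45009627, minus strand) encodes the CD3 epsilon chain, the partner of both delta and gamma and the chain most antibodies against CD3 bind. It held 341, 1117 and 731 counts in bulk skin and 1, 2 and 1 in the NCAM-enriched libraries. Bulk skin replicate 1 was low, and the highest bulk skin level was 2.28 times the lowest in CPM. The fitted log2 fold change was -8.05 ± 0.74 (SE, edgeR adjusted p = 0.00255). Without NCAM-enriched replicate 2, which held 2 of the 4 counts, bulk skin held 515 times the pooled normalised counts (95% counting interval 142 to 4253).

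Cd3g (chr9:44969572-44980431, minus strand) encodes the CD3 gamma chain, which pairs with epsilon in the same complex, and it had the most counts of the 6. The bulk skin libraries held 3799, 5375 and 5056 counts, or 1243 ± 125 CPM (SD, n = 3). The NCAM-enriched libraries held 1, 0 and 44 counts, so replicate 3 stood apart from the other two, at 1.01% of the bulk skin mean. The log2 fold change was -7.95 ± 1.20 (SE, edgeR adjusted p = 0.0175), the widest error of the set. Without NCAM-enriched replicate 3 a single count was left, at a pooled ratio of 3932 (95% counting interval 706 to 155300). The call was lost without bulk skin replicate 1 (adjusted p = 0.107 in the same edgeR test), 2 (0.0951) or 3 (0.105).

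Cd247 (chr1:165788681-165877277, plus strand) encodes the zeta chain, which forms a dimer and carries most of the complex's activation motifs. It held 350, 616 and 437 counts in bulk skin and 0, 0 and 3 in the NCAM-enriched libraries. Pooled over each group, bulk skin held 273 times the normalised counts (95% counting interval 93.1 to 1324, edgeR adjusted p = 0.00494), and without NCAM-enriched replicate 3 Cd247 was at least 129-fold lower. The call was lost without bulk skin replicate 1 (adjusted p = 0.0603 in the same edgeR test), 2 (0.0583) or 3 (0.0609). Of its exonic bases 60.3% overlap the neighbouring genes Pou2f1 and Gm16565, and the reads carry no strand, so the genes cannot be told apart in that stretch.

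Trdc (chr14:54142851-54148868, plus strand) is the constant region that every delta chain shares. It held 884, 1713 and 1272 counts in bulk skin and 0, 1 and 0 in the NCAM-enriched libraries. The pooled ratio was 2255 (95% counting interval 405 to 89110, edgeR adjusted p = 0.00160). That ratio rests on a single count: without NCAM-enriched replicate 2, which held it, Trdc was at least 607-fold lower, and without replicate 3 the ratio was 1069. Trdc overlaps Gm43434 and Trdv5 in 7.8% of its exonic bases.

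Trdv4 (chr14:54074905-54075515, plus strand) is the variable segment of the epidermal delta chain. It held 590, 801 and 582 counts in bulk skin, or 172 ± 11.9 CPM (SD, n = 3), and none in any NCAM-enriched library. This made it at least 383-fold lower there (edgeR adjusted p = 0.00255). The bound fell to 182-fold when NCAM-enriched replicate 3 was left out. No exonic base of Trdv4 overlaps another gene, and no window of 50 bases of it recurs elsewhere in the transcriptome.

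The other delta variable rows were close to empty in bulk skin, and Trdv4 stood for 98.8% of all Trdv counts (1973 of 1996, exact 95% interval 98.3 to 99.3%). The share was 99.3%, 99.5% and 97.5% in the 3 libraries. Trdv2-2 held 1, 4 and 15 counts and Trdv1 held 3, 0 and 0. Trdv2-1, Trdv3 and Trdv5 had no count in any of the 6 libraries. However, 56.6% of the windows of 50 bases of Trdv2-1 and 52.6% of those of Trdv2-2 recur in each other or in Gm43647. Of the exonic bases of Trdv5, 47.3% overlap Trdc. How reads there were counted is not known, so the counts of these 3 rows are uncertain. Of the joining segments, which are too short for many reads, Trdj2 held 22, 27 and 25 counts and Trdj1 held 3, 5 and 2, so Trdj2 took 88.1% (79.2 to 94.1%). The diversity segment Trdd2 held 1, 3 and 2. These joining and diversity rows lie outside the rule and were added after their values had been seen.

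The gamma locus on chromosome 13 was as one-sided as the delta locus. Its variable and constant rows together held 834, 1360 and 2366 counts in the bulk skin libraries and 0, 1 and 0 in the NCAM-enriched ones. Tcrg-V5, the variable segment of the epidermal receptor (chr13:19192278-19192725), held 205, 434 and 762 counts in bulk skin and took 90.7%, 86.8% and 93.0% of the gamma variable counts. Trgv2 followed with 12, 31 and 22 counts, Tcrg-V1 with 7, 27 and 8, Tcrg-V6 with 1, 6 and 20, Tcrg-V4 with 1, 2 and 5, and Tcrg-V7 with 0, 0 and 2. Tcrg-V3 had none. Tcrg-V5 was at least 272-fold lower in the NCAM-enriched libraries (edgeR adjusted p = 0.0106), and the bound was at least 129-fold without NCAM-enriched replicate 3. Across the 11 alternatives to this fit its adjusted p ranged from 1.25e-18 to 0.0928, with 8 of them at or below 0.05, and the call was lost without bulk skin replicate 1, 2 or 3.

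**Figure D2:**
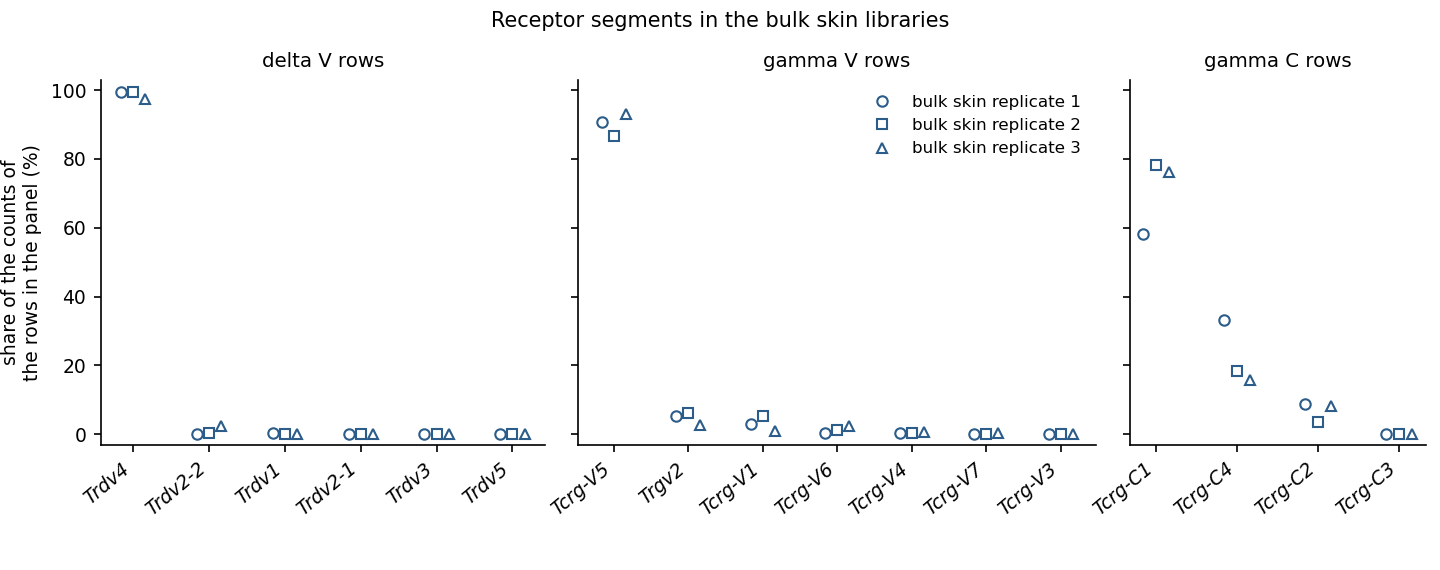
Share of the counts of the delta variable rows, the gamma variable rows and the gamma constant rows that each row took in the 3 bulk skin libraries, 1 symbol per library. Trdv4 took 97.5 to 99.5% and Tcrg-V5 86.8 to 93.0%, while Tcrg-C1 took 58.1 to 78.1%.

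Among the gamma constant regions, Tcrg-C1 (chr13:19214103-19217024), the one that lies next to Tcrg-V5 in the locus, held 353, 672 and 1179 counts in bulk skin and 0, 1 and 0 in the NCAM-enriched libraries. The pooled ratio was 1285 (95% counting interval 230 to 50770, edgeR adjusted p = 0.00465). Without NCAM-enriched replicate 2, which held the single count, Tcrg-C1 was at least 346-fold lower, and without replicate 3 the ratio was 609. Tcrg-C4, the constant region of another gamma cluster, held 202, 158 and 242 counts and was at least 117-fold lower (edgeR adjusted p = 0.0178), a bound of 55.5-fold once NCAM-enriched replicate 3 was left out. Its call was lost without bulk skin replicate 1 (adjusted p = 0.172 in the same edgeR test), 2 (0.109) or 3 (0.149) and under the replicate block (0.0597). Tcrg-C2 held 53, 30 and 126 and was not called (edgeR adjusted p = 0.0636, with 5 of 11 alternatives at or below 0.05), and Tcrg-C3 had no count. Over the 3 libraries Tcrg-C1 took 73.1% of the gamma constant counts, Tcrg-C4 19.97% and Tcrg-C2 6.93%. In Tcrg-C1 34.2% and in Tcrg-C2 25.4% of the windows of 50 bases recur in another constant region, so the split between these 2 rows is uncertain, while Tcrg-C4 shares none. Trgj1 held 23, 46 and 46 counts, 81.6% of the gamma joining counts, before Trgj4 with 5, 5 and 13 and Trgj2 with 1, 2 and 0.

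The 2 chains of the receptor did not keep a fixed ratio across the bulk skin libraries. Tcrg-V5 stood at 0.581, 0.646 and 0.646 counts per count of Tcrg-C1, whereas the short Trgj1 stood at 0.0652, 0.0685 and 0.0390. Trdv4 stood at 0.667, 0.468 and 0.458 counts per count of Trdc. Tcrg-C1 per Trdc was 0.399 and 0.392 in replicates 1 and 2 and 0.927 in replicate 3, which was the library with the most gamma chain counts. Cd3g per Cd3d was nearly constant at 4.96, 4.97 and 5.48, whereas Cd3e per Cd3d was 0.445, 1.03 and 0.792. With 3 libraries these ratios are a description.

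To compare levels between genes, CPM were divided by the exonic length in kilobases. In bulk skin the mean level was 387 ± 26.7 CPM per kilobase (SD, n = 3) for Trdv4, 380 ± 38.2 for Cd3g, 133 ± 5.62 for Cd3d, 85.7 ± 13.01 for Trdc, 44.8 ± 17.0 for Cd3e and 22.6 ± 2.30 for Cd247. Trdv4 and Cd3g did not differ beyond the spread of their libraries, and every other neighbour in this order was separated in all 3 libraries with no overlap. Trdv4 and Trdc are parts of the same delta chain, however, and were divided by 444 and 3865 exonic bases. The order of these 2 rows therefore does not rank separate genes. The order depended on the length taken for each gene. With the longest coding transcript Cd3g stood first at 1215 CPM per kilobase, 3.14 times Trdv4, and the ranges of Cd3d (149) and Cd3e (125), and of Cd3e and Trdc (85.7), overlapped. With either length Cd247 was the lowest of the 6, at 40.8 CPM per kilobase of its longest coding transcript. However, 60.3% of its exonic bases overlap other genes, and how reads there were counted is not known. Its level per kilobase and its rank are therefore uncertain. Counts per gene do not show which transcripts the cells used.

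**Figure D3:**
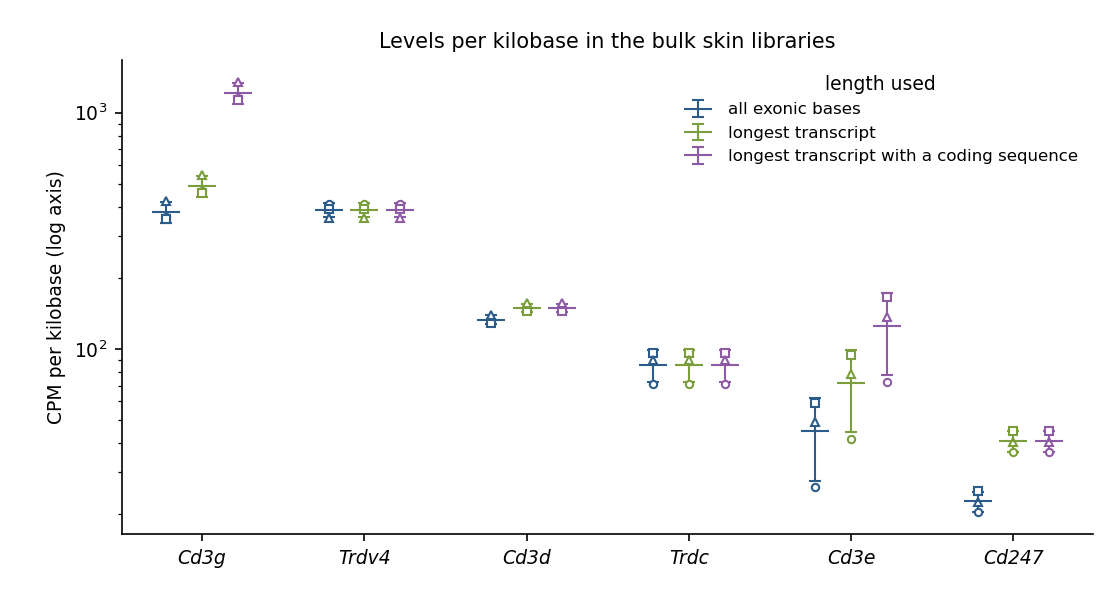
CPM per kilobase of the 6 genes in the bulk skin libraries on a log axis, with 3 ways of taking a gene's length. Symbols are single libraries, dashes the mean and whiskers the SD, and Cd3g moves from 380 to 1215 CPM per kilobase with the length used, while Trdv4 and Trdc do not move.

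Cd3g, Cd3d and Cd3e lie side by side on chromosome 9, with Cd3g and Cd3d transcribed away from each other, and Cd247 lies alone on chromosome 1. The 250 bases before the start of each are shown because these 4 genes were low together in the NCAM-enriched libraries. They come from the RefSeq promoter table (GRCm38.p6), which held these 4 of the 6 genes: Cd3d chr9:44981536-44981785 (plus strand), Cd3g chr9:44980432-44980681 (minus), Cd3e chr9:45009612-45009861 (minus) and Cd247 chr1:165788431-165788680 (plus). Capitals mark matches, on either strand, to 5 motifs, those of Ets, E protein, Gata and Runx transcription factors and the TATA box, whose letters are given with the matches.
Cd3d: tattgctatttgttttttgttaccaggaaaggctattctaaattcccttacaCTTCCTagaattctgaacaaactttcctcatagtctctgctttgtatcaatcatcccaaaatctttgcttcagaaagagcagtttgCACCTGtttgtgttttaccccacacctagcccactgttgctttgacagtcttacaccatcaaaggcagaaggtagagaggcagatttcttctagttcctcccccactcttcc
Cd3g: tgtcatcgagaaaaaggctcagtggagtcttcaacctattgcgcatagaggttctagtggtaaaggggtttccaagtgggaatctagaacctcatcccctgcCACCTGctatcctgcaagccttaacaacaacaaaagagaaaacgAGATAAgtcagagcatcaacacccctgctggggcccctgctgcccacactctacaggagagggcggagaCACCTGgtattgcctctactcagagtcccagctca
Cd3e: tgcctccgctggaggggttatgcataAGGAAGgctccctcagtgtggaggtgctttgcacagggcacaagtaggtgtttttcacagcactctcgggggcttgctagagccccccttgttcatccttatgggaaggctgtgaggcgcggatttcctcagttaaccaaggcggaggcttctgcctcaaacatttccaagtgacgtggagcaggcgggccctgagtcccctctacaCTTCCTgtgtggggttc
Cd247: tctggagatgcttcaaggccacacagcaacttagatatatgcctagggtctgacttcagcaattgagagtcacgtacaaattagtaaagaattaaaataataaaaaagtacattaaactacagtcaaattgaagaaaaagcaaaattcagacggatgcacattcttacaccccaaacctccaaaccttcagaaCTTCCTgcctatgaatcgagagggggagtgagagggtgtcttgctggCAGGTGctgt

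The Ets letters, AGGAAG, were found before Cd3d, Cd3e (in 2 places, the nearer starting 17 bases before the start) and Cd247, and in 29.5% of all 32851 promoters of this length. The E protein letters, CAGGTG, were found before Cd3d, Cd3g (in 2 places) and Cd247, and in 17.2% of all promoters. The Gata letters, AGATAA, were found before Cd3g alone, and in 9.99% of all. The Runx letters, TGTGGT, are not in these 4 windows and are in 14.0% of all promoters. The same holds for the TATA box letters, TATAAA, with 12.4%. No 2 of the matches overlap. A match is only a string of letters, and no binding was measured.

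In the test over all genes, Trdc ranked 4th, Cd3d 7th, Cd3e 10th, Trdv4 11th, Cd247 19th and Cd3g 79th by p-value of 13157. The genes whose pattern over the 6 libraries was most like that of the 6 genes summed, by the root mean square difference of centred log2(CPM + 1) among 8410 genes of at least 20 CPM in bulk skin, were Nkg7, a granule membrane protein gene of cytotoxic lymphocytes (difference 0.817), and Ctla2a, a protease inhibitor gene (0.832). Nkg7 held 2978, 3855 and 2783 counts in bulk skin and 0, 0 and 1 in the NCAM-enriched libraries. Ctla2a held 1280, 1672 and 1838 against 1, 0 and 3. The haemoglobin gene Hba-a2 (1.01), the protease gene Ctss of antigen-presenting cells (1.02) and Hcst, which encodes the DAP10 adaptor of the receptor NKG2D (1.08), followed.

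Genes of the signalling proteins directly downstream of the receptor were lower in part. Of 29 such genes 28 were tested, and 10 were called lower and none higher, where 1.55% of all tested genes were called lower. The median fitted log2 fold change was -4.78 over the 28, against -0.07 over all tested genes. Trat1, a transmembrane adaptor bound to the receptor complex, held 667, 1068 and 952 counts in bulk skin and 1, 0 and 1 in the NCAM-enriched libraries, a pooled ratio of 783 (95% counting interval 217 to 6470, edgeR adjusted p = 0.000709). Lat, the membrane scaffold that Zap70 phosphorylates, held 444, 494 and 340 against 1, 1 and 0, a ratio of 373 (102.9 to 3079, edgeR adjusted p = 0.00494), 177 without NCAM-enriched replicate 3 and 601 without replicate 2, with the call lost without bulk skin replicate 1 or 3. Ptpn22, a phosphatase that dampens the signal, held 258, 327 and 455 against 2, 1 and 0, a ratio of 202 (69.0 to 982, edgeR adjusted p = 0.0119), 436 without NCAM-enriched replicate 1 and 95.8 without replicate 3, with the call lost without bulk skin replicate 1, 2 or 3. These 3 had the smallest p-values of the list.

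The other called genes included Zap70, the kinase that binds the phosphorylated chains, Ptprc (CD45), Skap1, Sit1 and Was. Sit1 and Was had no count in the NCAM-enriched libraries. Fyn, a kinase that many cell types use, was the most abundant of those not called, with 370, 531 and 338 counts in bulk skin and 245, 374 and 17 in the NCAM-enriched libraries. Lck, the kinase that phosphorylates the CD3 chains, held 311, 698 and 586 counts against 0, 0 and 46, and with the one high library it was not called (log2 fold change -4.78 ± 1.27 SE, edgeR adjusted p = 0.0783). The count of called genes moved with the libraries used: it was 18 without NCAM-enriched replicate 2 and 18 without replicate 3, but 1, 2 and 1 without bulk skin replicate 1, 2 and 3. The count over all tested genes moved in the same directions, from 204 to 592, 733, 13, 21 and 16. Lck was called without NCAM-enriched replicate 2 or 3 and by DESeq2 and limma-voom. It was named after its values had been seen.

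**Figure D4:**
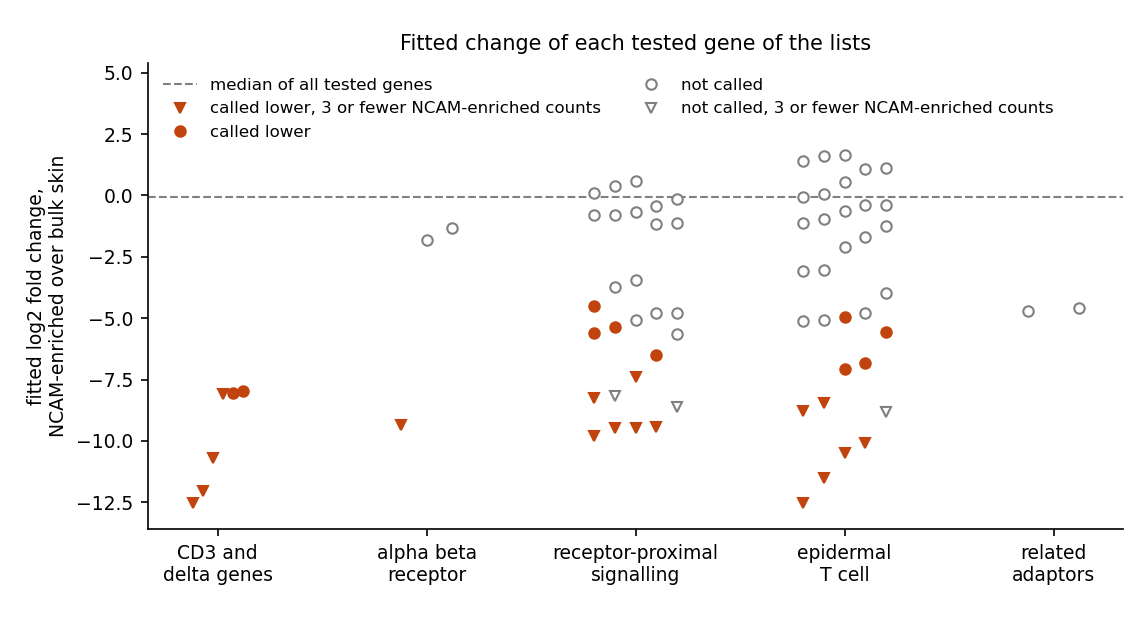
Fitted log2 fold change of each tested gene of the 5 lists, NCAM-enriched over bulk skin, with called genes filled and triangles for genes with 3 or fewer counts in the NCAM-enriched group, whose fitted values depend on the prior count. All 6 CD3 and delta genes lie between -12.52 and -7.95, whereas genes of the signalling and epidermal T cell lists lie on both sides of the median of all genes at -0.07.

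Genes known from dendritic epidermal T cells and from the gamma delta lineage were also lower in part. Of 37 such genes 33 were tested, and edgeR called 10 lower and none higher, where 1.55% of all tested genes were called lower. The median fitted log2 fold change was -3.05. Il2rb, the receptor chain for interleukins 2 and 15, held 811, 1538 and 972 counts in bulk skin and 0, 1 and 0 in the NCAM-enriched libraries, a pooled ratio of 1936 (95% counting interval 347 to 76490, edgeR adjusted p = 0.00160), at least 521-fold without NCAM-enriched replicate 2 and a ratio of 918 without replicate 3. Hcst and Klrk1, which encode the adaptor DAP10 and its receptor NKG2D, had no NCAM-enriched count and 2715 and 1365 counts in bulk skin. They were at least 528-fold and 265-fold lower (edgeR adjusted p = 0.00465 and 0.00494), and without NCAM-enriched replicate 3 these bounds were at least 250-fold and 126-fold. The call of Klrk1 was lost without bulk skin replicate 1 or 3. The integrin gene Itgae (CD103), which binds E-cadherin of keratinocytes, held 706, 1041 and 841 counts against 2, 3 and 34 and was also called, as were Cd69, Cd96, Cd160, Cd244a, Il7r and the chemokine gene Xcl1. Thy1 and Cd7 were among the 23 tested genes not called. Thy1 held 953, 1333 and 1129 counts against 9, 215 and 141 (log2 fold change -2.1 ± 0.93 SE, edgeR adjusted p = 0.268). Cd7 held 2331, 4323 and 2606 against 0, 89 and 17 (-5.06 ± 1.39 SE, edgeR adjusted p = 0.0841). Each was called in 3 of 11 alternatives.

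Gata3, a transcription factor of T cells and also of keratinocytes, was the most abundant gene of that list that was not called. It held 1008, 1927 and 1143 counts in bulk skin and 1862, 627 and 2914 in the NCAM-enriched libraries, a log2 fold change of 1.14 ± 0.40 (SE, edgeR adjusted p = 0.158). Some alternatives called genes of this list higher. DESeq2 did so for Gata3 (adjusted p = 0.0488) and Bcl11b (0.0237), and limma-voom for Bcl11b (0.0371). Without NCAM-enriched replicate 2, edgeR called Gata3 higher (adjusted p = 0.0431). Without NCAM-enriched replicates 1, 2 and 3 the number of genes called lower was 12, 15 and 15. Without bulk skin replicates 1, 2 and 3 it was 2, 4 and 2. The count over all tested genes moved from 204 to 223, 592, 733, 13, 21 and 16 in the same order. The effector gene Ifng held 75, 78 and 60 counts in bulk skin and none in the NCAM-enriched libraries, at least 41.4-fold lower, but missed the threshold (edgeR adjusted p = 0.0511, with 5 of 11 alternatives at or below 0.05). Il13 held 67, 121 and 99 against 5, 0 and 0, a log2 fold change of -4.77 ± 1.54 (SE, edgeR adjusted p = 0.129, with 4 of 11 at or below 0.05), and Il17a had no count in any of the 6 libraries. These 3 effector genes were picked after their values had been seen.

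The chains of the alpha beta receptor, which uses the same CD3 complex, were present as well. Of 6 genes, 3 were tested and 1 was called. Trac, its alpha constant region, held 86, 157 and 74 counts in bulk skin and none in the NCAM-enriched libraries (at least 61.6-fold lower, edgeR adjusted p = 0.0374), a call lost without any 1 of the bulk skin replicates 1, 2 and 3 and under the replicate block (adjusted p = 0.140), with the bound at 29.2 without NCAM-enriched replicate 3. Per kilobase its bulk skin level was 28.9 ± 7.30 CPM (SD, n = 3), against 85.7 ± 13.01 for Trdc, and the 3 libraries of each did not overlap. The beta constant regions Trbc1 and Trbc2 stood above Trdc, at 194.9 ± 28.85 and 236.5 ± 54.16 CPM per kilobase of exons. These levels depend on the length taken for each gene and do not rank the receptors. The beta constant regions were counted in every library. Trbc1 held 513, 560 and 575 counts in bulk skin and 92, 68 and 85 in the NCAM-enriched libraries, and Trbc2 held 551, 569 and 718 against 142, 83 and 202. The groups did not overlap, yet neither was called by edgeR (log2 fold change -1.81 ± 0.44 and -1.32 ± 0.37, SE, edgeR adjusted p = 0.0667 and 0.0892), although DESeq2 called both, and Trbc1 was also called by limma-voom, with the filter of at least 1 count and when NCAM-enriched replicate 2 or 3 was left out. The 2 rows share 40.5% and 44.0% of their windows of 50 bases with each other, so their split is uncertain. The coreceptor genes Cd8a and Cd8b1 had no bulk skin count, and Cd4 had 12, 0 and 0.

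Fcer1g and Tyrobp, adaptors with the same kind of activation motif that serve other immune receptors, were lower in every NCAM-enriched library than in any bulk skin library but missed the edgeR threshold. Fcer1g held 2299, 2052 and 3508 counts in bulk skin and 134, 3 and 27 in the NCAM-enriched libraries (log2 fold change -4.70 ± 1.09 SE, edgeR adjusted p = 0.0587), and Tyrobp 1753, 1401 and 1652 against 79, 0 and 41 (-4.58 ± 1.09 SE, edgeR adjusted p = 0.0636). Each was called in 6 of 11 alternatives, among them DESeq2 and limma-voom. The recombination and assembly genes Rag1, Dntt and Ptcra had no count in any library, and Rag2 held 8 counts in NCAM-enriched replicate 2 alone.

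Markers of other cells moved with the same contrast. Of the 9 Langerhans and myeloid cell markers 8 were called lower by edgeR, where 1.55% of all tested genes were, with a summed level of 188 to 777 CPM in the NCAM-enriched libraries and 11220 to 19520 CPM in bulk skin. Cd207 (langerin), their defining gene, held 1 count against 2632 over the groups, and Cd86 held none against 507. The 4 tested red blood cell genes were all called lower (3.09 to 23.9 against 747 to 1176 summed CPM, with Hba-a2 and Hbb-bt at 0). Without bulk skin replicates 1, 2 and 3 these 2 counts of called genes were 1, 2 and 2 and 1, 2 and 1, and the first was 5 without NCAM-enriched replicate 1. None of the 5 mast cell markers was called by edgeR, DESeq2 or limma-voom, and none had an unadjusted edgeR p under 0.05, but 4 of them were called lower without NCAM-enriched replicate 1 and 2 with the filter of at least 1 count. DESeq2 gave Mcpt4 no adjusted p. Their summed level was 1954, 3.86 and 3.12 CPM in the NCAM-enriched libraries and 442, 2079 and 1829 CPM in bulk skin. The 6 natural killer and innate lymphoid markers summed to 41.7 to 102.7 CPM against 61.5 to 70.9, with none of 2 tested genes called and Ncr1 at 0 in the NCAM-enriched libraries. The 5 B cell markers summed to at most 4.94 CPM in any library, and none was tested. The part of these cells in the values of the T cell genes was not tested.

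What was left in the NCAM-enriched libraries was uneven between genes and libraries. Of the 30 genes of these lists and of the gamma locus that were called lower, 20, 18 and 17 had no count at all in NCAM-enriched replicates 1, 2 and 3, and 3, 0 and 8 had more than 3 counts. None exceeded 6.77% of its bulk skin mean (Ptprc in replicate 1). The CD3 and delta genes stayed at or below 1.01%, and the 3 gamma locus genes at or below 0.401%. The median over the 30 genes was 0 in each library. Since these genes had been called lower, the values describe the call and do not add to it.

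**Figure D5:**
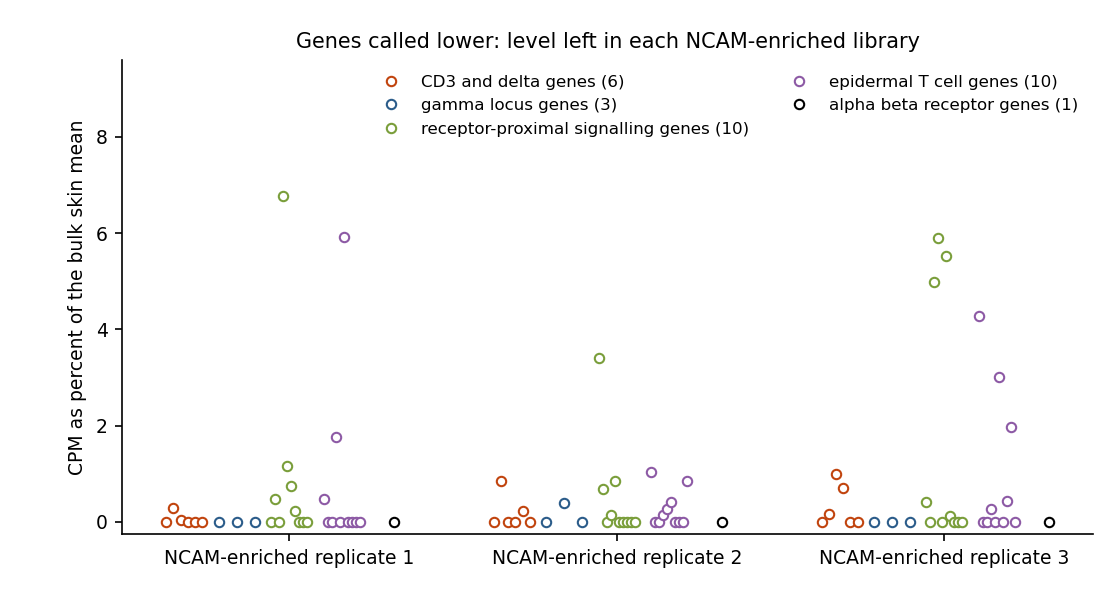
CPM of each of the 30 genes called lower in each NCAM-enriched library, as percent of that gene's bulk skin mean, 1 symbol per gene. The CD3 and delta genes reach at most 1.01% (Cd3g in replicate 3), while single signalling and epidermal T cell genes reach up to 6.77%.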

How the data were processed

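Raw read counts per gene were deposited for 6 Smart-seq2 libraries and 54532 genes, with no normalisation by the authors. According to the methods, adapters, polyA and abundant sequences were removed, reads were aligned to GRCm38 with STAR and counted with featureCounts. Which annotation release and strand setting were used is not given in the sources used here. Counts were whole numbers, every sample column was matched to a label, and no 2 libraries were identical. Totals ran from 1343190 to 4481830 counts. Reads are copies made by PCR without molecular identifiers, so that exact 95% intervals, and the floor of 3 counts per group, cover only the counting error.

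The labelled groups were compared with edgeR 4.0.16 in R 4.3.3 (filterByExpr with a minimum count of 10, TMM factors, quasi-likelihood F-test, Benjamini-Hochberg adjustment over 13157 genes, threshold 0.05). The script was tested on simulated data. The common biological coefficient of variation was 0.744. The SE was derived from the test, as the size of the fitted log2 change over the root of F. A group at 0 gives a bound from the floor, and 1 to 3 counts give a ratio of pooled counts with its counting interval. Gene positions, lengths and overlaps came from GENCODE release M21, which held 54495 of the gene IDs, and promoters from RefSeq. Python 3.11.15, pandas 2.3.3, scipy 1.17.1 and matplotlib 3.10.9 were used for tables and figures. Alternatives were DESeq2 1.42.0, limma-voom (limma 3.58.1), DESeq2 size factors, a filter of at least 1 count, the replicate number as a block, other gene lengths and leaving out each library.

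The genes, lists and tests were chosen with earlier results of these data known. Named by rule were the 6 genes, the other gamma and delta rows with a count, the 3 genes of smallest p of each list with the most abundant uncalled or opposite gene (except where a list is given by counts alone), and the 5 genes of most similar pattern. All other genes that the text gives by name were chosen after their values had been seen. Some genes of the lists are counted but not reported here by name. No protein sequences were used here.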

Additional observations from a re-analysis of the deposited data

How the results depend on the processing

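All 6 CD3 and delta genes kept their direction under every alternative, and all 6 were called with DESeq2, limma-voom, DESeq2 size factors, the filter of at least 1 count and the block. Leaving out single libraries gave log2 fold changes of -11.83 to -7.46 for Cd3g and -11.48 to -7.62 for Cd247. The lowest values came without NCAM-enriched replicate 3. That of Cd3g rested on a single NCAM-enriched count, and that of Cd247 on 0 counts and so on the prior count. Both calls were lost without any 1 of the bulk skin replicates 1, 2 and 3. The shares of Trdv4 and Tcrg-V5 moved by less than the spread between libraries. The genes called lower with DESeq2, limma-voom and the filter of at least 1 count numbered 928, 849 and 741 of all tested genes in place of 204, 18, 18 and 18 of the signalling list in place of 10, 16, 19 and 18 of the epidermal T cell list in place of 10, and 3, 2 and 2 of the alpha beta list in place of 1. Without single libraries these counts were 13 to 733, 1 to 18, 2 to 15 and 0 to 2. The replicate block gave 92, 6, 9 and 0, and it changed no call of the 6 genes. The shared replicate numbers were not taken as pairs, since deviations from the group means correlated at 0.0226, 0.000250 and -0.00436 between libraries of the same number, and only replicate 1 correlated best with its own number. Per kilobase of the longest transcript the means were 149 CPM for Cd3d, 71.6 for Cd3e, 489 for Cd3g and 40.8 for Cd247. Of the longest coding transcript, an alternative chosen after seeing the data, they were 149, 125, 1215 and 40.8. The cause of these differences was not tested, and leaving out a library also leaves fewer samples. At 1343190 to 3798136 counts per NCAM-enriched library, depth limits every bound given for a gene at 0, and without NCAM-enriched replicate 3 these bounds were 2.11 times lower.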

Other observations

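NCAM-enriched replicate 3 held T cell genes in unequal proportion. At the ratios of the pooled bulk skin libraries, its 44 counts of Cd3g would go with 11.96 counts of Trdc, 8.57 of Cd3d, 6.82 of Tcrg-C1, 6.77 of Cd3e, 6.10 of Trdv4 and 4.34 of Cd247. It held 0, 0, 0, 1, 0 and 3. The same library held 46 counts of the kinase gene Lck, 35 of the adhesion gene Jaml, 34 of Itgae, 28 of Skap1 and 16 of Rhoh, all genes with at most 3 counts in each of the other two NCAM-enriched libraries. Other genes of these lists had counts in NCAM-enriched replicates 1 and 2. Replicate 1 held 78 counts of Runx3 and 68 of Ptprc, and replicate 2 held 215 of Thy1 and 89 of Cd7. Of the 72 genes of the CD3 and delta, signalling and epidermal T cell lists, 31, 35 and 23 had no count in NCAM-enriched replicates 1, 2 and 3, at totals of 1995112, 1343190 and 3798136 counts. More than 3 counts were held by 34, 25 and 42 of the 72.

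The beta locus of the alpha beta receptor was counted in every NCAM-enriched library, whereas Trdc and Tcrg-C1 held 1 count each there, both in replicate 2. Besides Trbc1 and Trbc2, its 14 joining rows (Trbj) held 10, 1 and 20 counts there and 85, 151 and 118 in bulk skin, whereas the 35 variable rows (Trbv) held none there and 7, 55 and 9 in bulk skin. The 118 alpha variable rows (Trav) held 3 counts over the NCAM-enriched group and 10 over bulk skin. These rows were looked at after their values had been seen, and the source of the beta joining and constant counts was not tested.

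Mast cell genes were uneven in both groups. Mcpt4 held 1397, 0 and 0 counts in the NCAM-enriched libraries and 363, 1293 and 475 in bulk skin, and Cpa3 held 1257, 0 and 0 against 480, 2809 and 3307.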
